A study of Arabidopsis thaliana with 9 samples.

Results

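*PIF5* (AT3G59060) and the gene directly downstream of it, *PAO3* (AT3G59050), are described here in seedlings of *Arabidopsis thaliana*. They were chosen by identifier, as neighboring genes known for chimeric readthrough RNA in *fpa* mutants, and make up 2 of the 33602 gene identifiers in the count table. RNA was sequenced from wild type, from the triple mutant *bdr1,2,3*, in which all 3 BDR genes carry T-DNA insertions, and from the single mutant *fpa-7*, called *fpa* below. All plants were ecotype Col-0 and 8 days old, grown on MS plates at 21 °C (according to the sample labels) in 16 h light and 8 h dark, and no treatment was given. Each mutant is represented by 1 line, and each genotype by 3 libraries of whole seedlings, so that fewer cells of a type and less RNA per cell cannot be told apart.

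PIF5 is a basic helix-loop-helix transcription factor of the PHYTOCHROME-INTERACTING FACTOR (PIF) family. PIF proteins bind the G-box, promote elongation growth, and are broken down when light activates the phytochrome photoreceptors. PAO3 is a polyamine oxidase, a peroxisomal enzyme that converts spermine and spermidine back to smaller polyamines. FPA is an RNA-binding protein that acts in the choice of poly(A) sites, and without it transcription of some genes continues into the next gene. BDR proteins are putative negative elongation factors found at gene borders. Counts summed over a gene cannot separate reads of a chimeric RNA from others, so the level of each gene and the ratio of the pair are what these counts can give.

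In the RefSeq annotation of TAIR10.1, both genes are on the minus strand of chromosome 3. *PIF5*, listed there as *PIL6*, runs from 21827905 to 21830837 with 2561 exonic bases, and *PAO3* from 21824696 to 21827509 with 2039. The 3′ end of *PIF5* is 395 bp from the 5′ end of *PAO3*, and 32.2% of 13137 tandem pairs of protein-coding genes have a gap at or below this length (median 823 bp). The closest relatives of these genes are arranged in the same order on the plus strand of chromosome 2, where *PIF4* (AT2G43010) lies 2415 bp upstream of *PAO2* (AT2G43020). The next gene downstream of *PAO3*, AT3G59040, begins 270 bp beyond it, 3479 bp from the end of *PIF5*.

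The 300 bases before *PAO3* are shown because they fill most of the gap that a readthrough RNA from *PIF5* would cross, and those before *PIF5* because they are its own promoter region. The window of *PAO3* is chr3:21827510-21827809 and that of *PIF5* is chr3:21830838-21831137, both read on the minus strand of TAIR10.1 (RefSeq sequence), 5′ to 3′, ending at the base before the annotated start. The window before *PAO2*, chr2:17891203-17891502 on the plus strand, is added for comparison. Capitals mark CACGTG, the G-box, and AATAAA, the canonical poly(A) signal, on the strand shown.
PAO3: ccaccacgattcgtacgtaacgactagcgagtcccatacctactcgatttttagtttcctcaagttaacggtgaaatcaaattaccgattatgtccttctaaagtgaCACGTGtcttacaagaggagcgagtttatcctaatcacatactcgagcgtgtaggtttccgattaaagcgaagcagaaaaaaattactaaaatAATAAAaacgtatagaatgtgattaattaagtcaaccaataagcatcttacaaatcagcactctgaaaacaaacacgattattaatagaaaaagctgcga
PIF5: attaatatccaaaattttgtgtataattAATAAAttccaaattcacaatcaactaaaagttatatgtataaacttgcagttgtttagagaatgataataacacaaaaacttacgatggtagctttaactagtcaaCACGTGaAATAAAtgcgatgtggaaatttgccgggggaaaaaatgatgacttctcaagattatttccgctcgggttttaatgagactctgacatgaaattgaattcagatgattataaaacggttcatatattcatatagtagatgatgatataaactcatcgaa
PAO2: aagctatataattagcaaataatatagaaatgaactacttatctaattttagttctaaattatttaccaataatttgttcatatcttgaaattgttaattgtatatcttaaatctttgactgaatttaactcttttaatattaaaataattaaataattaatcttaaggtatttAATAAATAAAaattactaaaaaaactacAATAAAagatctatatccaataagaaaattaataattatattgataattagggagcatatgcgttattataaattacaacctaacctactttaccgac
CACGTG begins 193 bases before the start of *PAO3* and 165 bases before the start of *PIF5*, and is not in the windows of *PAO2* and *PIF4*. Of 27443 windows of this length before protein-coding genes, 7.09% hold it, and as a palindrome it reads alike on both strands. AATAAA occurs 100 bases before the start of *PAO3*, and 44.6% of all windows hold it on the strand of the gene (65.4% on either strand). In the window of *PIF5*, AATAAA begins 272 and 158 bases before the start, and the latter lies 1 base beyond the G-box. In that of *PAO2*, the AATAAA that begins 126 bases before the start overlaps the one at 122, and another begins at 98. These matches describe the letters in the windows and do not show that a protein binds or an RNA ends there.

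Library totals ran from 8676610 to 26861793 counts, with wild-type replicate 12 the shallowest. No 2 libraries of a genotype agreed within sampling noise (the lowest chi-square per degree of freedom of 9 pairs was 7.89). *BDR1* was at 37.4 ± 7.2 CPM (counts scaled to the library size that TMM normalization gives, SD, n = 3) in wild type and at 1.29 ± 0.574 (SD, n = 3) in *bdr1,2,3*. The count of *BDR2* was lower by less, at 14.3 to 19.4 CPM in wild type and 8.73 to 11.3 in *bdr1,2,3* (log2 fold change −0.85, adjusted p = 0.0177, edgeR), and this call was lost when wild-type replicate 1 or 5 or *bdr1,2,3* replicate 2 or 7 was left out and in a fit of the 2 genotypes only (adjusted p 0.0564 to 0.088, edgeR). *BDR3* was not called, at 6.24 to 11.6 CPM in wild type and 3.23 to 8.08 in *bdr1,2,3*, ranges that overlap (log2 fold change −0.76, adjusted p = 0.226, edgeR). For *FPA*, counts were 1098, 298 and 1693 in wild type against 803, 773 and 797 in *fpa* (log2 fold change −0.39, adjusted p = 0.248, edgeR), so its count does not check the *fpa* label. The summed level of 10 root markers was 193.9 to 219 CPM in wild type, 180.7 to 209.4 in *bdr1,2,3* and 193.1 to 231.8 in *fpa*, and none of the 10 was at 0. *PHO1* had the largest part of each sum (mean 91.75, 90.53 and 108.7 CPM in that order). EdgeR and DESeq2 called none of the 10 against wild type. In *bdr1,2,3*, 2 were at an unadjusted p under 0.05 (edgeR, both lower, 15.1% of all genes), with 3 estimates above 0 and 7 below. In *fpa* it was 1 (lower, 19.8% of all genes), with 4 above and 6 below. The paper describes short roots in *bdr1,2,3*. The summed level of 10 shoot markers, none of them at 0, was 25630 to 41470 CPM in wild type, 23300 to 26580 in *bdr1,2,3* and 20830 to 25390 in *fpa*. Most of each sum came from *CAB1* and *RBCS1A*. The top of the wild-type range came from replicate 12. In replicates 1, 12 and 5, *CAB1* was at 13110, 22160 and 12470 CPM and *RBCS1A* at 7656, 13040 and 8130 CPM. In *fpa* against wild type edgeR called none of the 10 shoot markers (1 at an unadjusted p under 0.05, 0 by DESeq2), with 3 estimates above 0 and 7 below. In *bdr1,2,3* against wild type edgeR called 1, *RCA*, which was lower (2 at an unadjusted p under 0.05, both lower, 1 by DESeq2). There 4 estimates were above 0 and 6 below. The *RCA* call depended on the libraries and the fit, as described under the other observations. Whether root or shoot content has a part in the levels below was not tested.

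The counts gave no level for *PAO3*. Its row holds 0 in all 9 libraries, 3 of each genotype, and the *PAO3* to *PIF5* ratio as counted is therefore 0 in every library. With 3 counts as the limit that a count of 0 allows, the ratio could have reached 0.898%, 2.68% and 0.594% in wild-type replicates 1, 12 and 5, 0.445%, 0.457% and 0.857% in *bdr1,2,3* replicates 2, 4 and 7, and 0.746%, 0.584% and 0.898% in *fpa* replicates 3, 6 and 8. Scaled to library size, this limit lies between 0.112 and 0.425 CPM. These limits cover counting error only and hold only if reads of *PAO3* could be counted to its row. No fold change, test or most similar gene can be given for *PAO3*, and the ratio was not compared between genotypes.

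*PAO2* was at 0 in all 9 libraries as well, while *PIF4*, upstream of it, had between 197 and 1125 counts. Next to each of these oxidase genes, the count table holds an identifier that RefSeq does not list, AT3G59052 for *PAO3* and AT2G43018 for *PAO2*, and both were at 0 in all 9 libraries. RefSeq annotates an upstream reading frame in both genes, a short reading frame that lies before the main one in the same RNA. In *PAO3* it covers chr3:21827177-21827383, 207 bases on the minus strand that begin with ATG and end with TGA, with 68 codons before the stop, and it begins 126 bases into the gene. In *PAO2* it covers chr2:17891767-17891934, 168 bases on the plus strand from ATG to TGA with 55 codons before the stop, and it begins 264 bases into the gene.

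Other genes with an annotated upstream reading frame were set beside *PAO3* and *PAO2* after the zeros were seen. Of 83 such genes in the table, 45 (54.2%) were at 0 in all 9 libraries, against 13.4% of the 26629 other protein-coding genes. *PAO3* and *PAO2*, whose zeros prompted the comparison, are counted in the 83, in the 45 and in the 58 that follow. Among the 58 with an identifier of this kind beside them, 45 (77.6%) were at 0 and 6 passed the filter on low counts, and 56 of the 58 neighboring identifiers were at 0 too. The 25 without one all passed the filter, and the median of their highest counts was 1280. With a limit of 3 counts in place of 0, the shares were 59.0% of 83 and 84.5% of 58, against 17.0% of the other genes. How the counting treated reads that overlap more than 1 gene is not given in the sources used here, and its part in the zeros was not tested. The zeros of *PAO3* are therefore given as listed, and neither presence nor absence of its RNA is read from them.

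**Figure D1:**
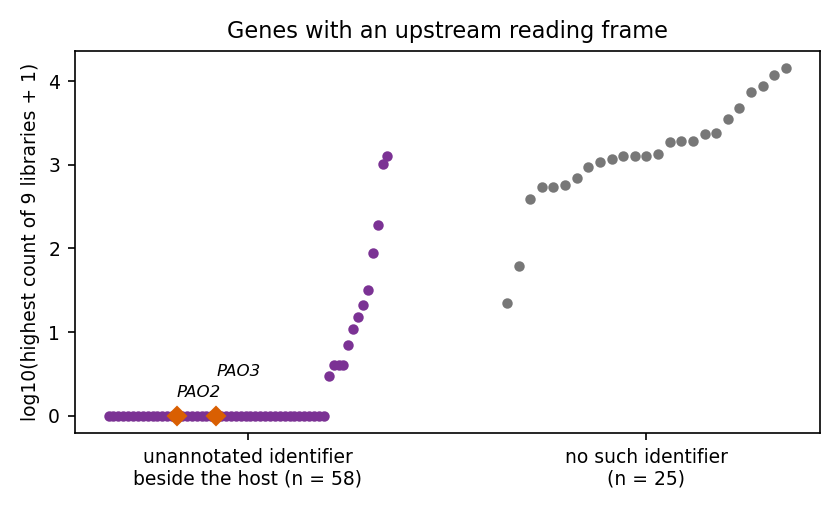
Highest count in any of the 9 libraries, as log10(count + 1), for the 83 genes with an annotated upstream reading frame, each point 1 gene, sorted by value within the 58 that have an unannotated identifier beside them and the 25 that have none. *PAO2* and *PAO3* (diamonds) lie among the 45 genes at 0, all of which are on the left.

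Zeros were also found downstream of other expressed genes. Of 9466 tandem pairs whose upstream gene passed the filter, 855 (9.03%) had a downstream gene at 0 in all libraries. Over all 26712 protein-coding genes in the table, the share at 0 was higher, at 13.6%. Within the polyamine pathway, counts near 0 were found only in genes with both an upstream reading frame and an unannotated identifier beside them. Of 17 polyamine genes, 5 have an upstream reading frame (*PAO2*, *PAO3* and the S-adenosylmethionine decarboxylases *SAMDC1*, *SAMDC2* and *SAMDC3*). Each of these 5 also has such an identifier, itself at 0 in all libraries, so the reading frame and the identifier cannot be told apart here. In every library, 4 of these 5 had at most 3 counts. *SAMDC1* had at most 6. S-adenosylmethionine decarboxylase supplies the aminopropyl groups for spermidine and spermine. Each of the other 12 genes had at least 54 counts in its highest library.

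*PIF5* was detected in every library, and its level was higher in *bdr1,2,3* than in wild type by an amount that did not pass the test. Wild-type replicates 1, 12 and 5 gave 334, 112 and 505 counts, which is 17.3, 15.9 and 18.9 CPM. In *bdr1,2,3* replicates 2, 4 and 7 it had 674, 656 and 350 counts, or 28.9, 26.1 and 24.1 CPM. In *fpa* replicates 3, 6 and 8 it had 402, 514 and 334 counts, or 22.8, 27.3 and 15.9 CPM. All 3 *bdr1,2,3* libraries were above all 3 wild-type libraries, whereas the *fpa* libraries spread over the range of both other genotypes, with replicate 8 at the level of the lowest wild-type library. The order of the means was *bdr1,2,3* (26.4 ± 2.43), *fpa* (22.0 ± 5.75) and wild type (17.4 ± 1.49 CPM; SD, n = 3 each), and neither neighboring pair in this order differed beyond its spread.

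The log2 fold change of *PIF5* in *bdr1,2,3* against wild type was 0.60 (standard error 0.19, 95% interval 1.15 to 2.0 as a fold), or 1.51-fold. Its adjusted p was 0.134 (unadjusted 0.00646, edgeR's quasi-likelihood test, adjusted by Benjamini-Hochberg over 20413 genes). In this comparison 2.48% of genes were called at an adjusted p under 0.05, and 9.45% had every *bdr1,2,3* library above every wild-type library. In *fpa* against wild type the log2 fold change was 0.33 (standard error 0.19, 95% interval −0.07 to 0.74, adjusted p = 0.350, edgeR), with 3.1% of genes called. This value rested on individual *fpa* libraries, as it was 0.15 without replicate 6 and 0.52 without replicate 8, with adjusted p-values of 0.773 and 0.202 in edgeR. In *fpa* against *bdr1,2,3* it was −0.26 (standard error 0.18, 95% interval −0.66 to 0.13, adjusted p = 0.578, edgeR), with 3.54% of genes called, and −0.08 without *fpa* replicate 8. Both mutants were compared with the same wild-type libraries. The labels do not say that the replicates came from separate cultures, and p-values measure the spread between these samples.

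**Figure D2:**
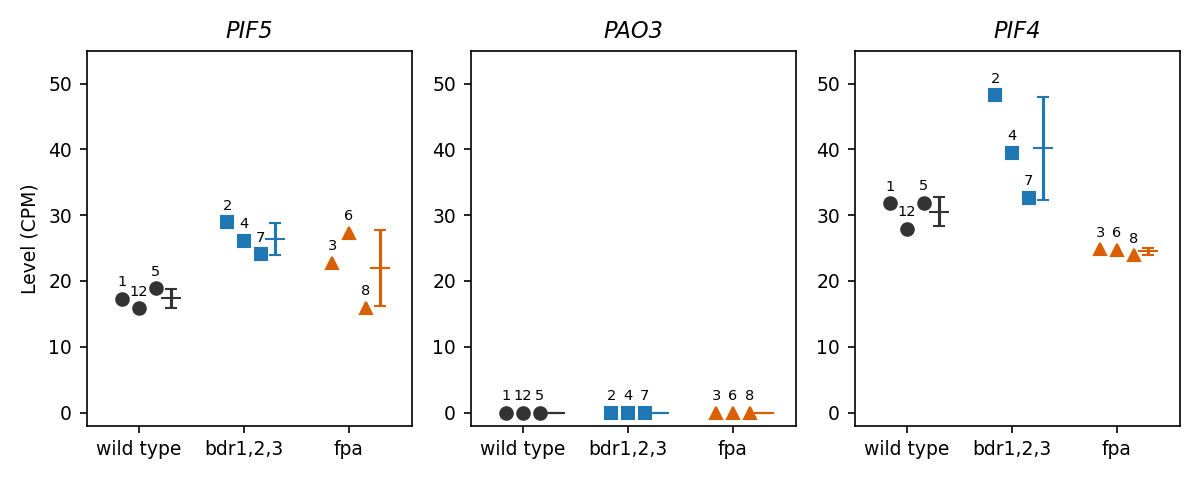
Levels of *PIF5*, *PAO3* and *PIF4* in CPM (counts scaled to TMM library sizes) in each library, with the replicate number above the point and the mean and SD of 3 libraries at the right of each group. The *bdr1,2,3* libraries lie between 24.1 and 28.9 CPM for *PIF5*, above the wild-type range of 15.9 to 18.9, and *PAO3* is at 0 in all 9 libraries.

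The genes whose profile over the 9 libraries was most like that of *PIF5* were *SRT1* (AT5G55760), which encodes a sirtuin-type deacetylase, *SNM1* (AT3G26680) and *EMB1895* (AT4G20060). Likeness was measured as the root mean square difference of the centered log2 CPM values over 9 libraries, which was 0.109, 0.139 and 0.145 for these genes and had a median of 0.406 over the 17356 genes compared. *SRT1* itself was at 4.96 to 6.20 CPM in wild type, 6.84 to 8.02 in *bdr1,2,3* and 5.14 to 7.97 in *fpa*. Its *fpa* replicates 6 and 8 were, like those of *PIF5*, the highest and the lowest of that genotype, which the choice by likeness over these same libraries favors. None of the 3 genes was called in any of the 3 comparisons (edgeR, Benjamini-Hochberg).

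*PIF4*, the PIF gene closest to *PIF5*, differed between the mutants. Its counts were 614, 197 and 853 in wild type (31.8, 27.9 and 31.9 CPM), 1125, 993 and 475 in *bdr1,2,3* (48.3, 39.5 and 32.7 CPM) and 438, 466 and 503 in *fpa* (24.8, 24.8 and 23.9 CPM). The 3 *fpa* libraries were the lowest of the 9 and the 3 *bdr1,2,3* libraries the highest. *PIF4* was lower in *fpa* than in *bdr1,2,3* (log2 fold change −0.72, standard error 0.15, adjusted p = 0.0172, edgeR), where 12.1% of genes had every *fpa* library below every *bdr1,2,3* library. This call was lost without *bdr1,2,3* replicate 2 or 4 or when any 1 *fpa* replicate was left out (log2 fold change −0.73 to −0.56, adjusted p 0.0645 to 0.101, edgeR). Against wild type, *PIF4* was not called in *bdr1,2,3* (0.39, standard error 0.15, adjusted p = 0.235) or in *fpa* (−0.32, standard error 0.15, adjusted p = 0.262, edgeR).

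The ratio of *PIF4* to *PIF5* counts, which needs no library size, was added after these values were seen. It was 1.84, 1.76 and 1.69 in wild type, 1.67, 1.51 and 1.36 in *bdr1,2,3*, and 1.09, 0.907 and 1.51 in *fpa*. Every library of both mutants was below every wild-type library, and *fpa* replicate 6 was the only library with more counts for *PIF5* than for *PIF4*. The share of other gene pairs that separate in this way was not computed. Groups that separate fully can only give the smallest p of a permutation test, so the p-values against wild type add no support. The difference in log2 ratio was −0.63 in *fpa* and −0.22 in *bdr1,2,3* against wild type (exact permutation test, two-sided, p = 0.1 each, the smallest that 3 against 3 libraries allow, and 0.15 adjusted over 3 comparisons). Between *fpa* and *bdr1,2,3* it was −0.40 (exact permutation test, p = 0.2, adjusted 0.2).

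The 7 genes listed here as the PIF family were all expressed (*PIL1*, listed among the targets below, is not one of the 7). Scaled by exon length, *PIF8* had the highest wild-type level at 17.4 ± 1.84 RPKM (CPM per kilobase of exon, SD, n = 3), followed by *PIF4* at 11.8 ± 0.863, *PIF1* at 7.03 ± 1.35, *PIF5* at 6.77 ± 0.581 and *PIF3* at 6.52 ± 0.508. *PIF1*, *PIF5* and *PIF3* did not differ beyond their spread. *PIF7* followed at 3.48 ± 0.957 RPKM and *PIF6* at 1.76 ± 0.576 RPKM. In *bdr1,2,3* the mean of *PIF5* was above that of *PIF1*, at 10.3 ± 0.95 against 8.27 ± 1.67 RPKM, again within their spread.

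In *fpa* against wild type, 0 of 7 PIF genes were called by edgeR (0 at an unadjusted p under 0.05, 0 by DESeq2), and their median log2 fold change was −0.29 against 0.005 over all genes tested. In *bdr1,2,3* against wild type edgeR also called 0 of 7, with 4 at an unadjusted p under 0.05, and the median was 0.22 against 0.012. Over all genes tested, 19.8% had an unadjusted p under 0.05 in *fpa* against wild type, 15.1% in *bdr1,2,3* against wild type and 14.9% in *fpa* against *bdr1,2,3*, and no test of the 4 of 7 against this share was made. *PIF5* and *PIF4* were the higher pair among the 4. *PIF8* had the largest decrease in estimate, at 595, 260 and 829 counts in the wild-type libraries (30.8, 36.9 and 31.0 CPM) and 370, 568 and 356 in *bdr1,2,3* (15.9, 22.6 and 24.5 CPM). Its log2 fold change of −0.64 had an adjusted p of 0.0887 in edgeR and 0.0339 in DESeq2, which made it the 1 PIF gene that DESeq2 called. *PIF3* was the other lower member, at −0.32 (adjusted p = 0.326, edgeR). In *fpa* against *bdr1,2,3*, *PIF4* was the 1 gene of 7 that edgeR called.

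**Figure D3:**
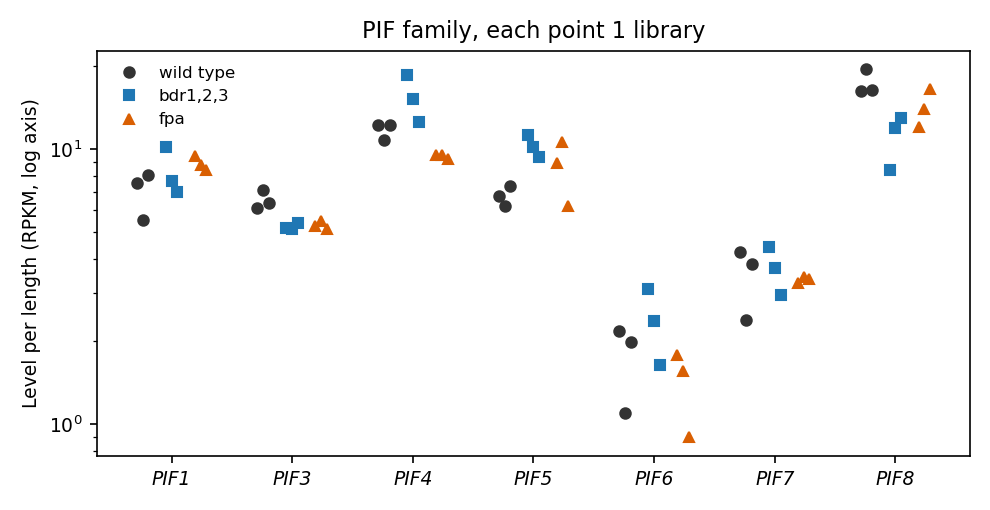
Level per exon length (RPKM, log axis) of the 7 listed PIF genes in each of 9 libraries, each point 1 library. *PIF5* in wild type (mean 6.77) lies beside *PIF1* (7.03) and *PIF3* (6.52), and its *bdr1,2,3* libraries lie above its wild-type libraries.

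The 12 listed regulators of PIF proteins comprise phytochromes, DELLA proteins, COP1, DET1 and helix-loop-helix inhibitors. None was called against wild type by edgeR in *fpa* (4 at an unadjusted p under 0.05, 1 called by DESeq2) or in *bdr1,2,3* (3 and 1), and the median log2 fold changes were −0.24 and −0.18. *HFR1*, a helix-loop-helix protein that keeps PIF4 and PIF5 from binding DNA, was the 1 regulator called in *fpa* against *bdr1,2,3*. It had 108, 189 and 254 counts in *fpa* (6.12, 10.04 and 12.1 CPM) and 402, 459 and 331 in *bdr1,2,3* (17.2, 18.3 and 22.8 CPM), beside 215, 69 and 388 in wild type (11.1, 9.79 and 14.5 CPM). All *fpa* libraries were below all *bdr1,2,3* libraries, which held for 12.1% of genes. The log2 fold change of *HFR1*, with its standard error, was −1.04 ± 0.24 (adjusted p = 0.0245, edgeR). The call was lost without *bdr1,2,3* replicate 4 or 7 or *fpa* replicate 3 or 6 (log2 fold change −1.08 to −0.81, adjusted p 0.0733 to 0.0947, edgeR). *PHYB*, the main red light photoreceptor that acts on PIF proteins, was at 64.8, 64.1 and 73.6 CPM in wild type and was not called in any of the 3 comparisons.

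Of 18 genes listed as targets of PIF proteins, 16 passed the filter, and *PIL1* and *ACS8* did not, with at most 5 and 30 counts. EdgeR called 0 of 16 in *fpa* against wild type (2 at an unadjusted p under 0.05, 0 by DESeq2), with a median log2 fold change of −0.03. It called 0 of 16 in *bdr1,2,3* against wild type (0 at an unadjusted p under 0.05, 0 by DESeq2), with a median of −0.05. In *fpa* against *bdr1,2,3* it called 0 as well (2 and 0), with a median of −0.09 (−0.006 over all genes). The target with the largest difference in estimate in *fpa* against wild type was *IAA29*, an auxin response repressor, at −1.10 (adjusted p = 0.162, edgeR), and in *bdr1,2,3* it was *ATHB2*, a shade-induced homeodomain factor, at 0.71 (adjusted p = 0.331, edgeR).

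*PIF4* and *PIF5* RNA follows the circadian clock, and the evening complex, of which LUX is the DNA-binding subunit, represses both genes in the early night. *LUX* was the 1 of 8 tested clock genes called. Counts of *LUX* were 3094, 1392 and 4339 in wild type (160.2, 197.4 and 162.0 CPM), 4376, 4174 and 2448 in *bdr1,2,3* (187.7, 166.1 and 168.3 CPM) and 1932, 2110 and 2214 in *fpa* (109.4, 112.1 and 105.3 CPM). The 3 *fpa* libraries were below all 6 others (13.4% of genes had every *fpa* library below every wild-type library), with log2 fold changes of −0.67 against wild type (standard error 0.13, adjusted p = 0.0133) and −0.68 against *bdr1,2,3* (standard error 0.13, adjusted p = 0.00848, edgeR). The call against wild type was lost when any 1 *fpa* replicate was left out (adjusted p 0.0592 to 0.0794, edgeR), and that against *bdr1,2,3* without *bdr1,2,3* replicate 2 or *fpa* replicate 8 (adjusted p 0.0539 and 0.0551, edgeR). The morning genes *CCA1* and *LHY* had at most 20 and 23 counts in any library, while the evening gene *TOC1* had between 1221 and 7017. *TOC1* was not called in any comparison (log2 fold change 0.12 in *fpa* and 0.34 in *bdr1,2,3* against wild type, adjusted p = 0.740 and 0.367, edgeR).

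**Figure D4:**
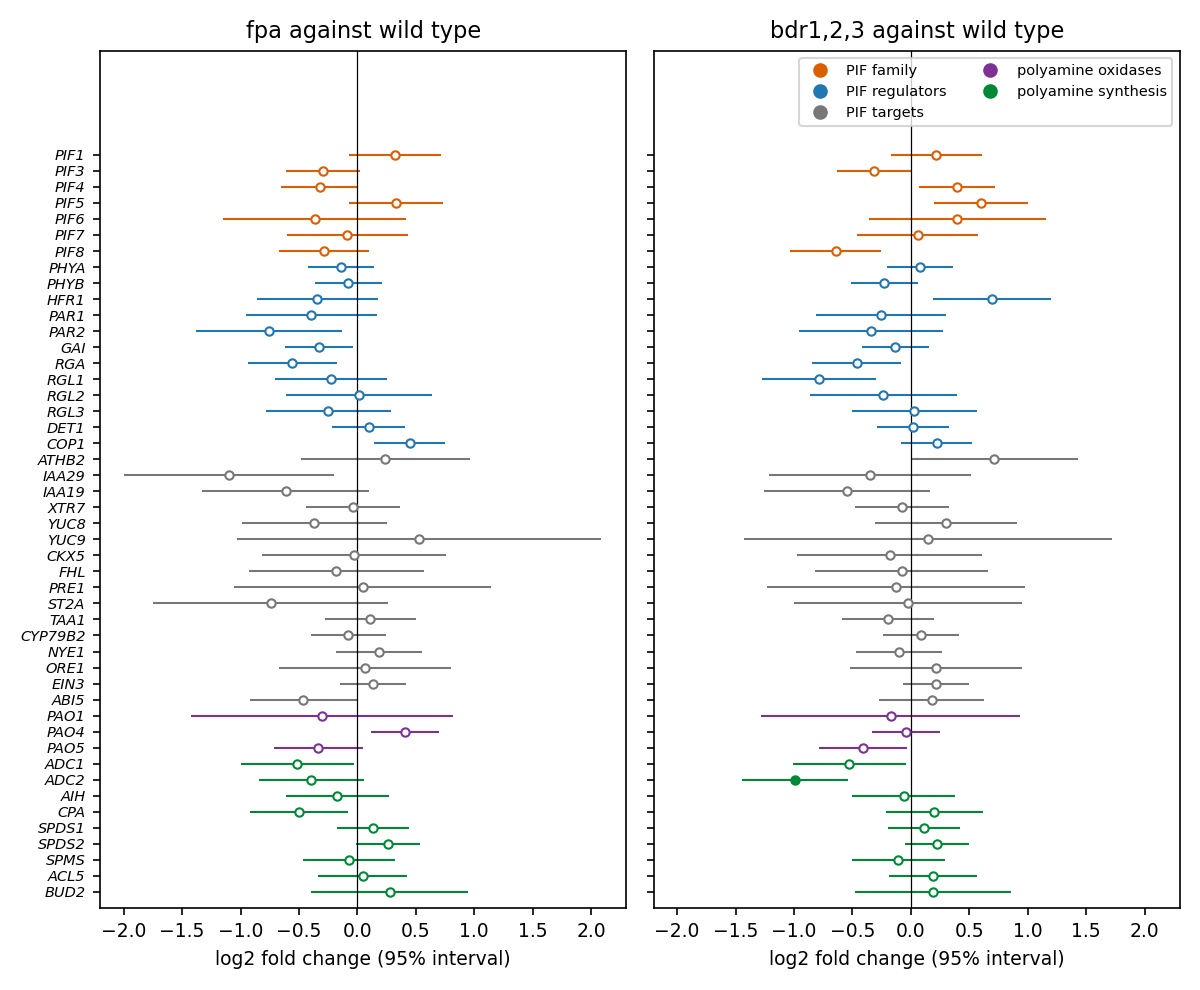
Log2 fold changes with 95% intervals from edgeR for the tested PIF genes, PIF regulators and targets, polyamine oxidases and polyamine synthesis genes in both mutants against wild type. Filled points are called at an adjusted p under 0.05, and *ADC2* in *bdr1,2,3* is the only filled point. *PIF5* lies at 0.33 in *fpa* and 0.60 in *bdr1,2,3*.

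The other polyamine oxidases, *PAO1*, *PAO4* and *PAO5*, were counted in all libraries and none was called by edgeR in any of the 3 comparisons. *PAO4*, which like PAO3 is a peroxisomal oxidase, was counted 1296, 575 and 2197 times in wild type (67.1, 81.6 and 82.1 CPM), 1586, 1940 and 1143 in *bdr1,2,3* (68.0, 77.2 and 78.6 CPM) and 1625, 1897 and 2360 in *fpa* (92.0, 100.8 and 112.3 CPM). All *fpa* libraries were above the other 6, as 13.3% of genes were against wild type and 11.9% against *bdr1,2,3*. Its log2 fold change in *fpa* was 0.40 against wild type (standard error 0.14, adjusted p = 0.115 in edgeR and 0.0733 in DESeq2) and 0.45 against *bdr1,2,3* (standard error 0.13, adjusted p = 0.0962 in edgeR and 0.0391 in DESeq2). *PAO5* was at −0.33 in *fpa* and −0.41 in *bdr1,2,3* against wild type, and *PAO1* had at most 54 counts in any library. At an unadjusted p under 0.05, 1 oxidase passed in each comparison.

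Of 12 polyamine synthesis genes, 9 passed the filter, and the 3 that did not are the SAMDC genes. *ADC2*, an arginine decarboxylase at the start of putrescine synthesis, was the 1 called in *bdr1,2,3* against wild type. It was at 631.9, 1239 and 834.6 CPM in wild type, at 427.5, 508.7 and 422.3 CPM in *bdr1,2,3* and at 759.1, 712.5 and 583.8 CPM in *fpa*. All *bdr1,2,3* libraries were below all wild-type libraries, which held for 9.62% of genes, and wild-type replicate 12 was the highest of the 9. The log2 fold change was −0.99 ± 0.21 (standard error), with an adjusted p of 0.021 in edgeR. Without wild-type replicate 12 it was −0.70 (adjusted p = 0.00871, edgeR). The call was lost when any 1 *bdr1,2,3* replicate was left out (adjusted p 0.061 to 0.106) and in a fit of these 2 genotypes only (adjusted p = 0.0727, edgeR). In *fpa* 0 of 9 were called against wild type (2 at an unadjusted p under 0.05, 0 by DESeq2) and 0 of 9 against *bdr1,2,3* (2 and 1).

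Among the 5 protein-coding genes on each side of the pair, 8 passed the filter and edgeR called 0 of 8 in every comparison. At an unadjusted p under 0.05 there was 1 in *fpa* against wild type, 0 in *bdr1,2,3* against wild type and 2 in *fpa* against *bdr1,2,3*, and DESeq2 called 1, 0 and 1. The gene that DESeq2 called was AT3G59080, on the plus strand, where the wild-type libraries had 249, 55 and 333 counts (12.9, 7.80 and 12.4 CPM) and the *fpa* libraries 122, 139 and 131 (6.91, 7.38 and 6.23 CPM). All *fpa* libraries were below all wild-type libraries, which held for 13.4% of genes. The log2 fold change of AT3G59080 was −0.72 (adjusted p = 0.09 in edgeR and 0.0448 in DESeq2). DESeq2 called 1421 genes in this comparison and edgeR 633.

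AT3G59040, on the same strand and next after *PAO3*, was counted in every library. Its 3′ end overlaps that of *TT12* on the other strand. The paper describes a stranded library kit, but the strand setting of the counting is not given. Reads there therefore cannot be assigned to a strand from the sources used here. The counts were 608, 113 and 755 in wild type (31.5, 16.0 and 28.2 CPM), 820, 781 and 373 in *bdr1,2,3* (35.2, 31.1 and 25.7 CPM) and 528, 566 and 620 in *fpa* (29.9, 30.1 and 29.5 CPM). The groups overlapped, and the estimate was 0.22 in *fpa* (standard error 0.20, 95% interval −0.22 to 0.66, adjusted p = 0.597) and 0.26 in *bdr1,2,3* (standard error 0.20, 95% interval −0.18 to 0.70, adjusted p = 0.596, edgeR) against wild type. AT3G59070, the next gene upstream of *PIF5* on the same strand, at a distance of 1526 bp, was at 0 in all 9 libraries.

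**Figure D5:**
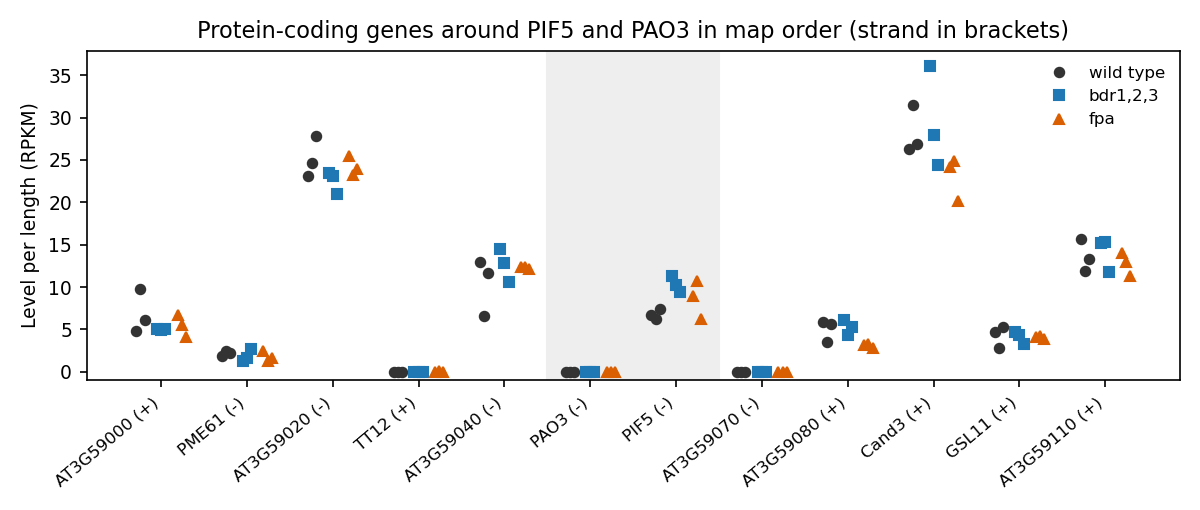
Level per exon length (RPKM) of *PAO3*, *PIF5* (shaded) and the 5 protein-coding genes on each side in map order, with the strand in brackets and each point 1 library. *PAO3* and AT3G59070 are at 0 in all 9 libraries, between genes that were counted in every library.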

How the data were processed

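RNA was extracted from whole seedlings, with 3 libraries for each of 3 genotypes. The authors sequenced 49 bp single-end reads, aligned them to TAIR10 with TopHat2 2.0.8, kept unique alignments with SAMtools 1.2 and deposited unnormalized counts per gene from featureCounts. The strand setting and the treatment of reads that overlap several genes are not given in the sources used here. The sample labels and the paper differ on the growth temperature and on the library kit, which the paper describes as stranded. A table of normalized signal that the authors also deposited was not used.

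Genes were compared on these counts in R 4.3.3 with edgeR 4.0.16 (TMM, filterByExpr, quasi-likelihood, 1 fit of 3 genotypes, two-sided, Benjamini-Hochberg adjusted p under 0.05, 20413 genes). CPM use TMM library sizes, and RPKM divide them by exon length. Windows, lengths and upstream reading frames come from RefSeq (TAIR10.1), and an unannotated identifier is one next to a gene in identifier order, with a number less than 10 away, that RefSeq lacks. DESeq2 1.42.0, RLE factors, no filter, at least 10 counts, 2 genotypes only, a threshold of 0.01 and each library left out were alternatives. Figures and tables were made in Python 3.11.15. The fits were tested on simulated data.

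The members and lists were chosen with earlier results of these data known. Genes named are the pair, *PIF4* and *PAO2*, the mutated genes, 5 neighbors on each side, the PIF and oxidase genes, called members of other lists and the 3 genes most like *PIF5*. *PHYB*, *TOC1*, *CCA1*, *LHY*, *IAA29*, *ATHB2*, *PIL1*, *ACS8*, AT3G59068, *CAB1*, *RBCS1A*, *RCA*, *PHO1* and the SAMDC genes are outside this rule and were chosen after their values were seen. The planned tests of downstream to upstream ratios, alone and against the *PIF4* and *PAO2* pair, were not made, since *PAO3* and *PAO2* are at 0 throughout.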

Additional observations from a re-analysis of the deposited data

How the results depend on the processing

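*PIF5* kept its direction and was not called in any of the 14 alternatives of each comparison, with log2 fold changes of 0.525 to 0.663 in *bdr1,2,3* against wild type, 0.146 to 0.521 in *fpa* against wild type and −0.451 to −0.076 in *fpa* against *bdr1,2,3*. Without the shallow wild-type replicate 12 the values were 0.544, 0.279 and −0.264. The number of genes called moved more. In *fpa* against wild type it was 633, and 1421 with DESeq2, 388 with only these 2 genotypes, 187 at a threshold of 0.01 and 199 to 928 with a library left out (354 without wild-type replicate 5, and 257, 230 and 199 without *fpa* replicates 3, 6 and 8). In *bdr1,2,3* against wild type it was 507, and 882, 302, 229 and 279 to 656 (334 without wild-type replicate 5, and 279, 290 and 336 without *bdr1,2,3* replicates 2, 4 and 7). In *fpa* against *bdr1,2,3* it was 722, and 1137, 1269, 341 and 376 to 1565 (1565 without wild-type replicate 12, 432 and 391 without *bdr1,2,3* replicates 2 and 4, and 435, 431 and 376 without *fpa* replicates 3, 6 and 8). The cause was not tested. No paired analysis was possible because the genotypes share no replicate number.

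The zeros of *PAO3* are in the deposited counts, which no setting changes. A count of 0 allows up to 3 counts in a library, a limit that holds only where reads of *PAO3* are counted to its row.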

Other observations

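*RCA*, rubisco activase, was the 1 of 10 shoot markers called in *bdr1,2,3* against wild type (log2 fold change −0.73, standard error 0.15, adjusted p = 0.0186, edgeR). The *RCA* call was lost without wild-type replicate 5 or when any 1 *bdr1,2,3* replicate was left out and in a fit of these 2 genotypes only (adjusted p 0.0535 to 0.117, edgeR). The long noncoding RNA gene AT3G59068, on the plus strand beyond the 5′ end of *PIF5* and overlapping AT3G59070, had between 1 and 25 counts in the 9 libraries. *TT12*, a transporter gene beyond AT3G59040, was counted only in *fpa*, with 5 counts in replicate 6 and 1 in replicate 8, too few to pass the filter.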
